A study of Mus musculus with 12 samples.

Results

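Transcripts of 36 genes that mark oligodendrocyte progenitor cells (OPCs) or regulate their passage to myelinating oligodendrocytes were followed in mouse white matter. The 36 symbols were taken from a list chosen with earlier results of these data known. All 36 were found among the 24060 gene rows of the count table. All animals were male Tie2-Cre:Rpl22-HA mice, in which Cre driven by the Tie2 (Tek) promoter, active in the endothelial and part of the blood cell lineage, adds an HA (hemagglutinin) epitope to Rpl22, a protein of the ribosome. Animals 489, 555 and 556 ate a control-fat diet (CFD) in which fat gave 10% of kcal, and animals 516, 517 and 676 a high-fat diet (HFD) in which it gave 60%. Each animal gave RNA from an anti-HA pulldown (IP) and RNA from the whole white matter sample (input), so that 4 groups of 3 libraries were formed. The age of these animals is not given in the sources used here. Values below are given in this order of animals, as CPM (counts scaled to a common library size by the trimmed mean of M-values).

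OPCs divide and migrate through adult white matter under the control of platelet-derived growth factor, whose receptor is Pdgfra. The transcription factors Olig1, Olig2 and Sox10 are held through the whole lineage, while Sox6, Id2, Id4 and Hes5 hold cells in the progenitor state. On commitment, cells pass through a Gpr17 and Bcas1 stage before Myrf switches on the myelin genes. The members were sorted into 17 on the progenitor side (12 surface and matrix genes, 5 inhibitors of differentiation), 14 on the differentiation side (8 committed and premyelinating genes, 6 maturation genes) and 5 lineage transcription factors on neither side. Several of them, such as Lingo1, Ptprz1, Bcan, Tnr, Fyn and Id2, are also expressed by neurons or astrocytes, and in bulk tissue fewer cells of a type and less RNA per cell cannot be told apart.

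All 36 members passed the filter on low counts, and 35 or 36 had at least 1 count in each library. The lineage markers Pdgfra, Olig2 and Sox10 had counts in all 12 libraries. Their mean level per gene was 9.55 ± 0.876 CPM per kb of transcript in CFD input and 9.60 ± 1.96 in HFD input (SD, n = 3 each). The same level was 15.1 ± 2.35 CPM per kb in CFD IP and 16.1 ± 6.24 in HFD IP. Markers of endothelial cells, which the pulldown was designed to collect, stood far below, with a mean over 10 genes of 0.159 ± 0.0322 CPM per kb in CFD IP and 1.11 ± 0.795 in HFD IP. In the inputs this mean was 0.256 ± 0.138 CPM per kb in CFD and 0.845 ± 0.329 in HFD. The 9 endothelial markers tested had a median log2 fold change of IP over input of -0.26 in CFD and -0.93 in HFD. In each diet 4 of the 9 were above 0, and 0 had an edgeR unadjusted p under 0.05. Enrichment of endothelial transcripts in the pulldown was thus not seen. None of these 10 endothelial markers had a count in every library, whereas a count was found in every library for all 10 markers of myelinating oligodendrocytes, all 10 of neurons and all 9 of astrocytes. The pulldown RNA in which the members were measured thus held abundant transcripts of cell types outside the Tie2 lineage. The sample labelled as the input of the male animal 676 had 133 counts of Xist, an RNA expressed in females, against at most 7 in the others. By edgeR 0 members were called in any comparison with all animals, and again 0 without that animal or without any other. This count does not bear on whether the label of that sample is right. Library totals ran from 19567186 to 33660708 counts. The ribosomal precursor Rn45s took 38.7% to 42.3% of the counts in CFD IP, 17.1% to 19.1% in HFD IP and 6.34% to 14.2% in the inputs.

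Windows of 250 bases upstream of the start are shown for the progenitor receptor Pdgfra and the maturation gene Gpr37, which had the smallest p-values between the diets in IP among the members, and for Olig2, a lineage regulator whose diet groups overlapped. They come from RefSeq (GRCm38.p6) and read 5′ to 3′ on the strand of the gene. The Pdgfra window is chr5:75152001-75152250 on the plus strand, just before the start of the curated transcripts and within the first intron of a longer predicted one. The Gpr37 window is chr6:25689981-25690230 on the minus strand, and the Olig2 window is chr16:91225300-91225549 on the plus strand. Capitals mark matches, on either strand, to CANNTG (the E-box bound by Olig and Id partner proteins) or to the Sox-type strings ACAAT and ACAAAG, and no marked matches overlap.
Pdgfra: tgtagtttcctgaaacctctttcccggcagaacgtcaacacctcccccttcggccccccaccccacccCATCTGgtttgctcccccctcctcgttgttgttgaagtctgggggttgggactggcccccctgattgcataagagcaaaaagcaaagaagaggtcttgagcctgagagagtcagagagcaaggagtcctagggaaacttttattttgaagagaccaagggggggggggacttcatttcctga
Gpr37: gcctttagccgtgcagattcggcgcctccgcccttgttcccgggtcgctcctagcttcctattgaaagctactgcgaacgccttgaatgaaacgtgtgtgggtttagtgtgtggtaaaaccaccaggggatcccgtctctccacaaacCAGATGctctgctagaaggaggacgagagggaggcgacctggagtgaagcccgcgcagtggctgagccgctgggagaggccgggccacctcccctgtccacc
Olig2: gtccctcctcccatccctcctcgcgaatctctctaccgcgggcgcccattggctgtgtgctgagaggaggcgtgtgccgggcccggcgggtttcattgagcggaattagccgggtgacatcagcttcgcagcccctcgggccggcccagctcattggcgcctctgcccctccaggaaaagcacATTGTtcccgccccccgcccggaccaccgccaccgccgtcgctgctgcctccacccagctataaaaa
The Pdgfra and Gpr37 windows each held 1 CANNTG and neither Sox-type string, and the Olig2 window held 1 ACAAT, written as its reverse complement. Of 32851 RefSeq windows of this length, 66.2% held CANNTG, 27.7% held ACAAT and 16.5% held ACAAAG. Among the 35 windows of the 28 members with an entry, 20 held CANNTG, 13 held ACAAT and 9 held ACAAAG. A match describes the letters of a window and is not a binding site.

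Levels per length set the members apart before any comparison. In the 6 inputs the highest was Sirt2, a deacetylase of myelinating oligodendrocytes, at 88.0 CPM per kb (mean, range 51.8 to 122). Bcas1, a protein of early myelinating cells, followed at 69.0 CPM per kb and Lingo1, a membrane protein that restrains differentiation, at 67.1 CPM per kb. The next were Olig1 at 26.1, Sox8 at 25 and the receptor phosphatase Ptprz1 at 23.6 CPM per kb. Pdgfra ranked 26 of 36 at 3.26 CPM per kb. The lowest were the progenitor proteoglycan Cspg4 (NG2) at 1.35, the membrane metalloproteinase Mmp15 at 1.89 and the calcium channel Itpr2 at 2.29 CPM per kb. The 6 highest members came from all 5 role groups, and the surface markers Pdgfra and Cspg4 lay in the lower part of the order.

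The first comparison asked whether the members differed with diet in the pulldown RNA. By edgeR's quasi-likelihood test 0 of the 36 members had an adjusted p under 0.1 in HFD IP against CFD IP, where 0.0557% of the 14354 genes tested did. The lowest adjusted p among members was 0.346. At an unadjusted p under 0.05 there were 6 members, all higher in HFD IP, against 10.9% of all genes in either direction, 6.08% higher and 4.82% lower. They were Pdgfra, Cspg5, Vcan and Sox6 on the progenitor side and Itpr2 and Gpr37 on the differentiation side. DESeq2 put 3 of the 36 under an adjusted p of 0.1, against 5.08% of all genes. The adjusted p-values of DESeq2 were 0.0205 for Gpr37, 0.0725 for Pdgfra and 0.0983 for Vcan.

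Pdgfra had 1.45, 12.1 and 9.59 CPM in CFD IP. In HFD IP it had 24.7, 71.7 and 16.1 CPM. Every HFD IP library stood above every CFD IP library, and animal 517 alone held 63.8% of the HFD IP level. The fit gave a log2 fold change of 2.28 (SE 0.86, 95% interval 0.49 to 4.06), for which edgeR's unadjusted p was 0.0146 and its adjusted p 0.367. Without animal 517 the log2 fold change was 1.40. In the inputs Pdgfra was steady, at 25.4, 14.6 and 20.4 CPM in CFD and 22.8, 22.7 and 22.2 CPM in HFD. The HFD inputs lay inside the range of the CFD inputs, with a log2 fold change of 0.16 (95% interval -1.54 to 1.87). Pdgfra lies at chr5:75151322-75198206.

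Gpr37, a receptor that rises as oligodendrocytes mature, had 5.69, 9.13 and 10.8 CPM in CFD IP. In HFD IP it had 55.9, 33.2 and 19.9 CPM. The groups did not overlap. Its log2 fold change of 2.09 (SE 0.72, 95% interval 0.59 to 3.59) had the smallest edgeR unadjusted p of the members, 0.0083, and an adjusted p of 0.346. Leaving out each animal in turn gave 1.62 to 2.39. Gpr37 lies at chr6:25668523-25689980 and belongs to the differentiation side.

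Sox6, a repressor that keeps progenitors undifferentiated (chr7:115470872-116040776), had 29.0, 38.1 and 25.5 CPM in CFD IP and 106, 81.0 and 32 CPM in HFD IP. The lowest HFD IP library, of animal 676, lay within the CFD IP range. The log2 scale difference was 1.24 (SE 0.55), and edgeR gave p-values of 0.0343 unadjusted and 0.411 adjusted. Itpr2, an intracellular calcium channel of differentiating cells (chr6:146108299-146502258), had 16.1, 7.30 and 44.5 CPM in CFD IP and 175, 44.2 and 16.9 CPM in HFD IP. Animal 516 held 74.1% of its HFD IP level, the other HFD IP libraries fell inside the CFD IP range, and without animal 516 the log2 fold change of 1.80 became 0.41.

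Other members were singled out after their values were seen. Vcan, the matrix proteoglycan versican, had 5.64, 17.3 and 6.17 CPM in CFD IP and 24.8, 65.5 and 21.8 CPM in HFD IP, without overlap. Id2, which sequesters basic helix-loop-helix partners, had 9.57, 16.2 and 15.3 CPM in CFD IP and 28.2, 31.1 and 27.7 CPM in HFD IP, also without overlap. Its HFD IP libraries lay close together, and its log2 fold change of 1.08 had an interval that included 0. Cspg5, a proteoglycan of progenitors and neurons, reached 244 CPM in the HFD IP of animal 516 against 41.9 and 36.8 CPM in the other HFD IP libraries. Its log2 fold change of 1.58 became 0.11 without that animal. The Rn45s share of the counts was lower in HFD IP than in CFD IP without overlap, so it cannot be told apart from diet. With Rn45s and Lars2 left out the log2 fold changes were 2.26 for Pdgfra and 2.07 for Gpr37, which does not separate the share from diet. In all, 4 members (Pdgfra, Vcan, Id2 and Gpr37) were higher in HFD IP without overlap, where 5.94% of all genes were, and 0 were lower without overlap, where 4.66% were. The summed level of 10 microglial markers was 120 to 159 CPM in CFD IP and 186 to 371 CPM in HFD IP, and 8 of 10 had a log2 fold change above 0. That of 10 endothelial markers was 4.59 to 6.56 CPM in CFD IP and 11.9 to 67.7 CPM in HFD IP, and 6 of the 9 tested were above 0. Neither pair of ranges overlapped, and none of these markers was at 0 in all libraries of an IP group. However, 6 of the 10 endothelial markers were at 0 in at least 1 CFD IP library, and 3 in HFD IP. No endothelial marker had more than 80 counts in CFD IP, so that sum rests on low counts. In input the endothelial sum was 7.15 to 16.1 CPM in CFD and 14.7 to 42.5 CPM in HFD, with overlap. The part of the microglial and endothelial markers in the values of the 4 members was not tested.

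Olig2, Sox10 and Olig1, the factors that define the lineage, overlapped between the diets in IP. Olig2 had 42.5, 7.78 and 17.7 CPM in CFD IP and 25, 42 and 17.9 CPM in HFD IP, and the groups overlapped throughout. Its log2 fold change was 0.32 (95% interval -1.60 to 2.25), which leaves a change of several fold in either direction within the interval. Sox10 had 95.5, 92.2 and 94.9 CPM in CFD IP, the narrowest range of any member there, and 94.6, 104 and 52.4 CPM in HFD IP. Its log2 fold change was -0.17 (95% interval -1.05 to 0.71), and without animal 676 it was 0.08. Olig1 had 102, 104 and 155 CPM in CFD IP and 145, 144 and 39.6 CPM in HFD IP, a log2 fold change of -0.14 (SE 0.48). The IP of animal 676 was the lowest HFD IP library for Olig1, Olig2 and Sox10, and it also had the lowest summed level of 10 markers of myelinating oligodendrocytes, 2937 CPM against 6770 and 7239 CPM in the other HFD IP libraries. The part of this in the results was not tested.

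**Figure D1:**
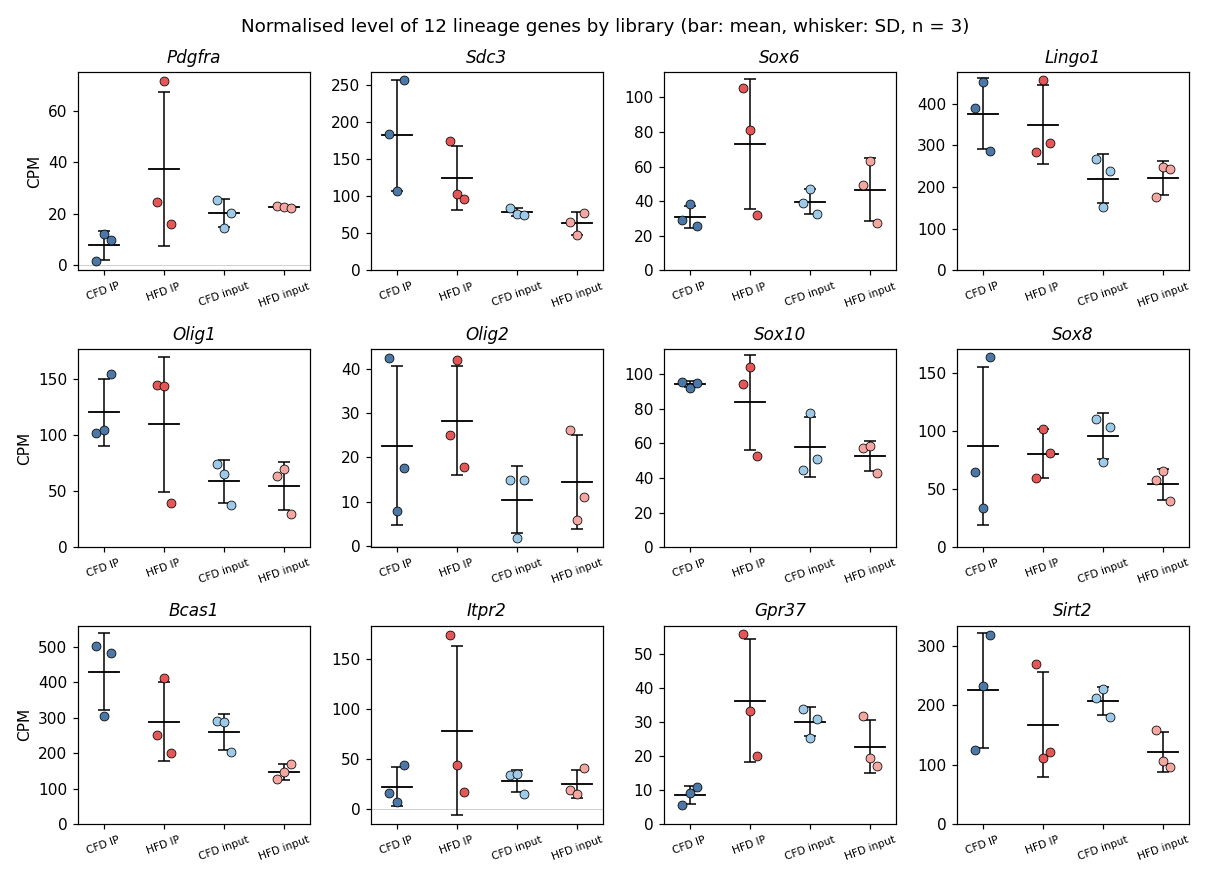
Level of 12 members in CPM (vertical axes, linear) in the 4 groups (horizontal axes); each point is a library, the bar is the mean and the whisker the SD (n = 3). Pdgfra and Gpr37 show HFD IP libraries above all CFD IP libraries, while Sox10 and Lingo1 stand higher in IP than in input in both diets.

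By role, the medians of the diet difference in IP were 0.05 for the 12 surface and matrix genes and 1.08 for the 5 inhibitors of differentiation. They were -0.11 for the 5 lineage transcription factors, -0.03 for the 8 committed and premyelinating genes and -0.06 for the 6 maturation genes. The median over all 14354 genes was 0.03. Of the progenitor side 10 of 17 members had a log2 fold change above 0, and of the differentiation side 5 of 14, where 7361 of the 14354 genes did. The 4 inhibitors above 0 were Sox6, Id2, Id4 and Hes5, of which Sox6 had an unadjusted p under 0.05, and Lingo1 stood at -0.11 (SE 0.32). Lingo1 had 391, 453 and 286 CPM in CFD IP and 284, 458 and 307 CPM in HFD IP, with full overlap.

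The remaining members are given by their diet difference in IP. Among surface and matrix genes, Ptprz1, which binds matrix and growth factor ligands, Bcan (brevican), Tnr (tenascin-R), Lhfpl3, Cspg4 and C1ql1, a secreted complement-like protein, had log2 fold changes between -0.36 and 0.30. Ptprz1 had the narrowest range of any member over the 12 libraries, 1.78-fold from lowest to highest, with means of 185 CPM in CFD IP, 171 in HFD IP, 192 in CFD input and 189 in HFD input. The SE of the diet difference in IP was 0.32 for Ptprz1, 0.42 for Tnr and 0.54 for Bcan. It was 0.81 for Lhfpl3, 1.29 for Cspg4 and 1.35 for C1ql1, whose small estimates do not show that they were unchanged. Sdc3 stood at -0.55 (SE 0.39), Cacng4 at -1.52 (SE 1.84) and Mmp15 at 1.33 (SE 1.42). Of the inhibitors, Id4 stood at 0.38 (SE 0.70) and Hes5, an effector of Notch, at 1.12 (SE 1.92).

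On the differentiation side, Bcas1 stood at -0.58 (SE 0.33) and Sirt2 at -0.43 (SE 0.39), while Tcf7l2, an effector of Wnt signals, the kinase Fyn, Tns3, a protein of cell adhesions, Enpp6, Plxnb3 and the myelin regulator Myrf had log2 fold changes between -0.13 and 0.03. Gpr17, a receptor of committed progenitors, stood at 0.69 (SE 0.71), Neu4 at -1.29 (SE 1.52), Zfp488 at 1.32 (SE 1.38) and the homeodomain factor Nkx6-2 at -0.26 (SE 1.51). The lineage factor Nkx2-2 stood at 1.91 (SE 1.83). For Gpr17, Neu4, Zfp488 and Nkx6-2 the SE was larger than the difference. Of the members between -0.13 and 0.03, Fyn, Tns3 and Myrf had an SE of 0.50, 0.46 and 0.54. Tcf7l2, Enpp6 and Plxnb3 had an SE of 0.91, 1.09 and 1.27. The 95% interval of Plxnb3 ran from -2.66 to 2.59, so its small estimate does not show that it was unchanged.

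**Figure D2:**
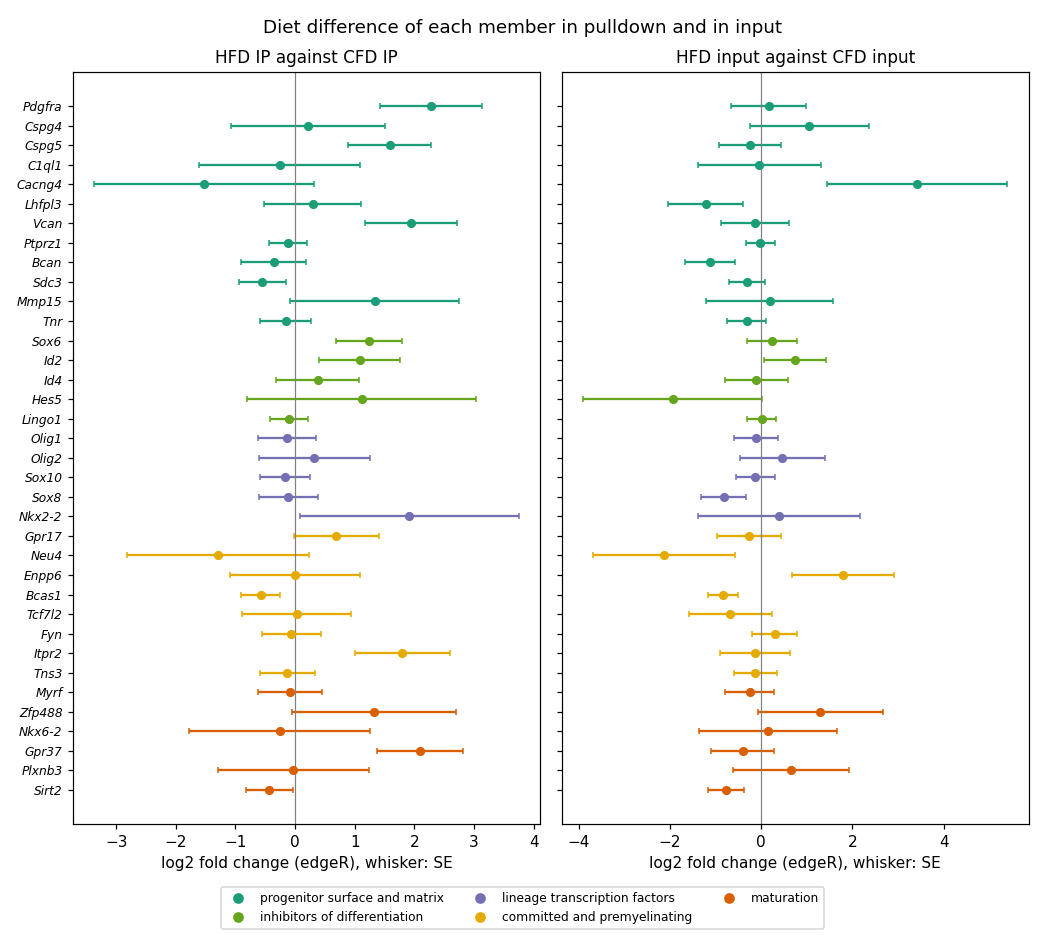
Fitted log2 fold change of each of the 36 members (rows) between the diets, in IP on the left and in input on the right; points are edgeR estimates, whiskers are the SE and colours the role groups. Pdgfra, Vcan, Cspg5, Sox6, Itpr2 and Gpr37 lie farthest above 0 relative to their whiskers in IP, and none of them does so in input.

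Progenitor and differentiation genes were also set against each other within each library, as the mean log2 CPM of the 17 minus that of the 14. This difference was -0.49, -0.50 and -0.75 in CFD IP and -0.0035, -0.15 and -0.45 in HFD IP. The group means were -0.58 ± 0.15 and -0.20 ± 0.23 (SD, n = 3 each), a difference of 0.38, and the libraries of the diets did not overlap. In the inputs it was -0.80, 0.77 and -0.56 in CFD and -0.44, -0.38 and -0.24 in HFD. The CFD input of animal 555 stood alone at the top, and the HFD inputs fell between it and the other CFD inputs. Its mean log2 CPM on the differentiation side was 3.68, against 5.14 and 4.96 in the other CFD inputs. It had 1 count of Nkx6-2, 3 of Plxnb3 and 6 of Zfp488, and each member has equal weight in this mean. Its summed differentiation-side level, 957 CPM, lay between the 1004 and 777 CPM of the others. The part of members at low counts in the balance was not tested. As the members and their sides were chosen for this comparison with earlier results of these data known, no test was made of the balance.

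**Figure D3:**
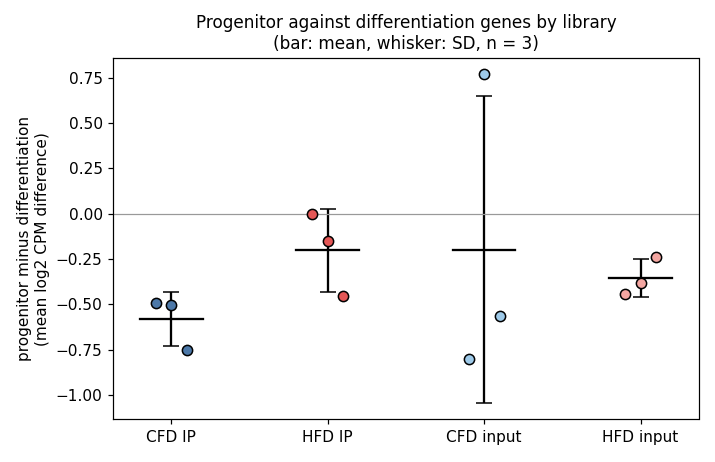
Mean log2 CPM of 17 progenitor-side members minus that of 14 differentiation-side members (vertical axis, log2 units) for each library of the 4 groups; points are libraries, the bar is the mean and the whisker the SD (n = 3). HFD IP averages -0.20 against -0.58 in CFD IP, and the CFD input group has the widest spread.

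The next comparison asked which lineage transcripts were more abundant in the pulldown than in the white matter it came from. In CFD, 0 of 36 members had an edgeR adjusted p under 0.1, where 0.188% of all genes did, and the lowest adjusted p among members was 0.268. At an unadjusted p under 0.05 there were 6 members, against 11.8% of all genes, 5.94% higher and 5.88% lower. Of these Sdc3, Lingo1, Olig1, Enpp6 and Bcas1 were higher in IP and Gpr37 was lower. Enpp6 had 6.31, 59.3 and 2.75 CPM in CFD IP, and without animal 555 its log2 fold change of 2.40 became -0.37. DESeq2 put 2 members under an adjusted p of 0.1, Sdc3 (0.0586, higher) and Gpr37 (0.0520, lower), where 5.65% of all genes passed. In HFD, 0 of 36 had an edgeR adjusted p under 0.1, where 0.0139% of all genes did. There, 3 members had an unadjusted p under 0.05, Cspg5, Sdc3 and Bcas1, all higher in IP, against 6.51% of all genes, or 4.68% in that direction. DESeq2 called 0 members there, and 0.46% of all genes.

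Sdc3, a heparan sulfate proteoglycan (chr4:130792537-130826318), had 183, 106 and 256 CPM in CFD IP against 84.3, 76.5 and 75.0 CPM in CFD input. In HFD it had 174, 103 and 95.8 CPM in IP against 65.1, 47.5 and 77.8 CPM in input. The fractions did not overlap in either diet. The log2 fold change of IP over input was 1.21 (SE 0.40) in CFD, with an edgeR unadjusted p of 0.0060, and 0.97 (SE 0.40) in HFD, with an edgeR unadjusted p of 0.0227.

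Bcas1 (chr2:170343973-170427911) had 503, 305 and 483 CPM in CFD IP against 292, 287 and 203 CPM in CFD input. In HFD it had 252, 413 and 199 CPM in IP against 126, 146 and 169 CPM in input. The fractions again did not overlap within a diet, with log2 fold changes of 0.72 (SE 0.33) in CFD and 0.97 (SE 0.33) in HFD. Lingo1 (chr9:56618460-56796310) had 267, 153 and 239.5 CPM in CFD input and 176, 248 and 244 CPM in HFD input, below its IP libraries in each diet. Its log2 fold changes were 0.77 (SE 0.32) and 0.65 (SE 0.32).

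Sox10 (chr15:79154913-79164490) had 44.8, 77.7 and 51.0 CPM in CFD input and 57.1, 58.3 and 43.0 CPM in HFD input. It was higher in the IP of all 6 animals, with log2 fold changes of 0.70 (SE 0.43) and 0.67 (SE 0.43). Olig1 (chr16:91269769-91271939) had 74.0, 65.1 and 37.4 CPM in CFD input and 63.6, 69.9 and 30.0 CPM in HFD input. Its log2 fold changes were 1.03 (SE 0.49) in CFD and 1.0 (SE 0.49) in HFD. These 5 members, Sdc3, Bcas1, Lingo1, Sox10 and Olig1, were the members higher in IP than in input in every animal, where 4.09% of all genes were. None of the 36 was lower in IP in every animal, where 4.15% of all genes were. Olig2 (chr16:91225550-91228677) was higher in IP in 5 of 6 animals, with 14.8, 1.73 and 14.8 CPM in CFD input and 26.2, 5.76 and 11.1 CPM in HFD input.

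Other members stood lower in IP than in input in CFD without overlap. They were 5, Pdgfra, Vcan, Mmp15, Neu4 and Gpr37, where 8.72% of all genes were lower without overlap. The members higher without overlap were also 5, Sdc3, Lingo1, Olig1, Sox10 and Bcas1, where 6.43% of all genes were. In HFD, 0 members were lower without overlap, where 7.98% of all genes were, and 4 were higher (C1ql1, Sdc3, Lingo1 and Bcas1), where 6.13% were. Gpr37 had 34, 25.5 and 31.0 CPM in CFD input and 31.7, 19.4 and 17.2 CPM in HFD input. Its log2 fold change of IP over input was -1.82 (SE 0.72) in CFD, with an edgeR unadjusted p of 0.0184, and 0.67 (SE 0.70) in HFD. For Pdgfra these were -1.38 (SE 0.84) and 0.73 (SE 0.82), with edgeR unadjusted p-values above 0.1.

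**Figure D4:**
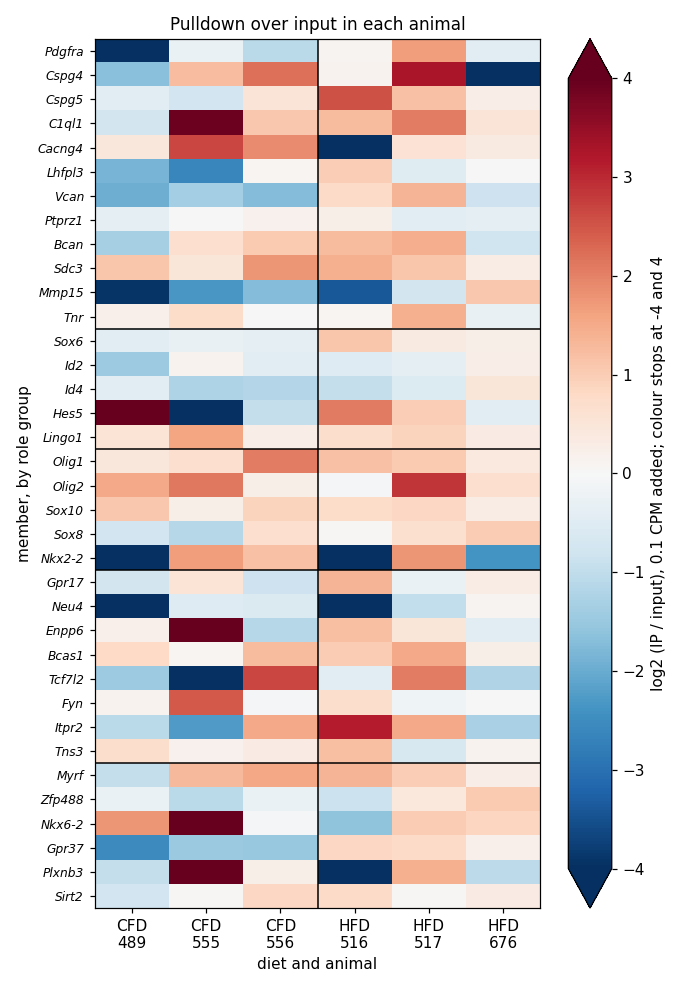
Log2 ratio of IP to input (colour, red above 0, blue below 0) for the 36 members (rows, in role groups) in each of 6 animals (columns, CFD left and HFD right). Bcas1, Lingo1, Olig1, Sdc3 and Sox10 are above 0 in all 6 animals. Pdgfra, Vcan, Mmp15, Sox6, Id4, Neu4, Zfp488 and Gpr37 are below 0 in all 3 CFD animals, a pattern that was not counted over all genes.

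Across the role groups the medians of IP over input in CFD were -0.02 for surface and matrix genes, -0.60 for inhibitors of differentiation and 0.70 for lineage transcription factors. They were 0.05 for committed and premyelinating genes and 0.32 for maturation genes, while the median over all genes was -0.01. In HFD the corresponding medians were 0.49, 0.64, 0.67, 0.51 and 0.29, with 28 of 36 members above 0 and all 5 lineage transcription factors among them. Over all genes tested in HFD, 7096 of 14354 were above 0 and the median was -0.01. The share of the counts taken by Rn45s also differed most between fractions in CFD. With Rn45s and Lars2 left out before scaling, as with them kept, 0 members had an edgeR adjusted p under 0.1 in any comparison. The part of the Rn45s share in these ratios was not tested.

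Whether the pulldown difference itself depended on diet was tested as an interaction. By edgeR 0 of 36 members had an adjusted p under 0.1, where 0.0% of all genes did, and the lowest among members was 0.872. There was 1 member with an unadjusted p under 0.05, against 5.36% of all genes. It was Gpr37, with a log2 difference of 2.5 (SE 0.995) between the IP over input ratio in HFD and that in CFD and an edgeR unadjusted p of 0.0199. Pdgfra and Vcan had differences of 2.11 (SE 1.17) and 2.09 (SE 1.06), and Cacng4 had one of -4.94 (SE 2.69). DESeq2 called 0 members and 0.843% of all genes. For Gpr37 and Sox6 the IP was below the input in all CFD animals and above it in all HFD animals, where 1.23% of all genes were, and 0 members showed the opposite, where 1.22% did.

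In the inputs the question was whether the white matter itself differed with diet. By edgeR 0 of 36 members had an adjusted p under 0.1, where 0.0% of all genes did. By DESeq2 0 members and 0.216% of all genes were called. At an unadjusted p under 0.05 there was 1, Bcas1, against 2.03% of all genes. Every HFD input library was below every CFD input library for Bcas1, and its log2 fold change was -0.83 (SE 0.33; edgeR unadjusted p 0.0192). Leaving out each animal gave -0.98 to -0.73.

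Sirt2 (chr7:28766752-28788665) had 213, 228 and 181 CPM in CFD input against 159, 107 and 96.5 CPM in HFD input, a log2 fold change of -0.78 (SE 0.39). Sox8, a partner of Sox10 (chr17:25565893-25570686), had 110.3, 73.6 and 103 CPM in CFD input against 57.5, 65.3 and 39.6 CPM in HFD input, a log2 fold change of -0.82 (SE 0.49). For both genes the diets did not overlap in input. In IP they overlapped, with Sirt2 at 124, 233 and 318 CPM in CFD and 269, 111 and 121 CPM in HFD. Sox8 had 64.5, 33.6 and 164 CPM in CFD IP and 59.5, 102 and 80.9 CPM in HFD IP.

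With Bcas1 and Neu4, a sialidase of newly formed oligodendrocytes, they made 4 members lower in HFD input without overlap, where 4.33% of all genes were. Enpp6, a phosphodiesterase of newly forming oligodendrocytes, was the 1 member higher without overlap, where 6.05% were. It had 5.49, 1.23 and 6.24 CPM in CFD input and 10.8, 27.3 and 6.86 CPM in HFD input. The summed level of 10 myelinating oligodendrocyte markers was 4016 to 5047 CPM in CFD input and 3003 to 4606 CPM in HFD input, with overlap. That of 9 astrocyte markers was 4613 to 5697 CPM in CFD input and 3831 to 4030 CPM in HFD input, without overlap, and 8 of the 9 had a log2 fold change below 0. All 10 neuron markers were also below 0, with a median of -0.23. Their summed level was 8905 to 14163 CPM in CFD input and 8342 to 11603 CPM in HFD input, with overlap. Of the 9 endothelial markers tested, 7 were above 0. No astrocyte or myelinating marker was at 0 in any input, and the part of these lists in the values of the members was not tested. The summed level of all 36 members was 1839 to 2343 CPM in CFD input and 1603 to 1859 CPM in HFD input.

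The members varied widely between replicate libraries. The median ratio of the highest to the lowest library of a group was 2.40 in CFD IP, 2.72 in HFD IP, 2.13 in CFD input and 2.29 in HFD input. In every group, 10 members stayed under 3-fold (Lhfpl3, Ptprz1, Sdc3, Tnr, Id2, Lingo1, Sox10, Bcas1, Gpr37 and Sirt2), with a median level of 21.1 CPM per kb in the inputs, against 4.76 CPM per kb for the other 26. The widest spread was in members of low level, named here after their values were seen. Plxnb3, a semaphorin receptor, had 9, 1419 and 243 counts in HFD IP and 509, 3 and 416 counts in CFD input. Nkx2-2, a homeodomain regulator of differentiation, had 0, 954 and 15 counts in HFD IP, where a count of 0 allows up to 3 counts. Neu4 had 0, 246 and 163 counts in CFD IP, Hes5 had 116, 0 and 11, and Zfp488, a cofactor of Olig2, had 163, 1 and 167. Cacng4, an auxiliary subunit of glutamate receptors, had the widest diet difference of the inputs, 3.41 (SE 1.98), with 665, 31 and 33 counts in HFD input and 2, 40 and 12 in CFD input. The input of animal 516 held 89.0% of its HFD input level.

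**Figure D5:**
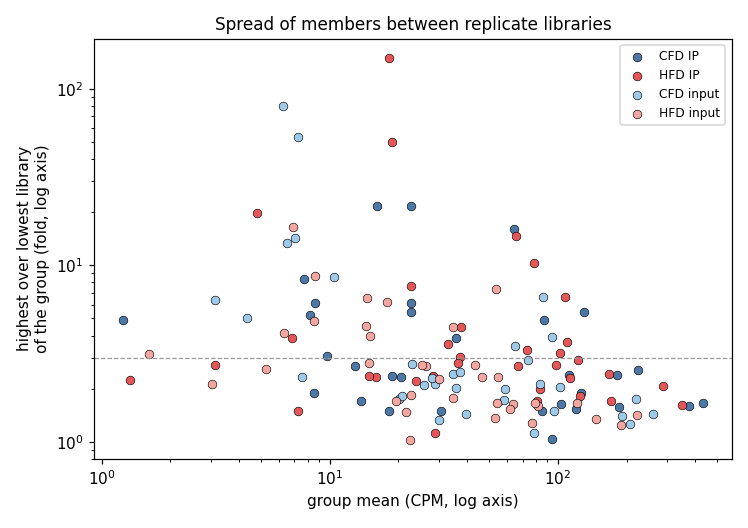
Ratio of the highest to the lowest library (vertical axis, log scale) against the mean CPM (horizontal axis, log scale) for members in each group of 3 libraries; groups with a library at or under 3 counts are left out, and the dashed line marks 3-fold. Ratios above 10 occur mostly at low means, and Plxnb3 in HFD IP has the highest ratio.

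Of 28 other genes that carry the signals acting on progenitors (platelet-derived growth factor, Notch, bone morphogenetic protein, Wnt, fibroblast and insulin-like growth factor and hedgehog genes), 27 were tested. By edgeR 0 of the 27 had an adjusted p under 0.1 in any of the 5 comparisons. In HFD IP against CFD IP 18 of 27 were above 0, their median was 0.58 on the log2 scale, and 6 had an unadjusted p under 0.05, 4 higher and 2 lower. Over all genes tested the median was 0.03, and 10.9% had such a p, 6.08% higher and 4.82% lower. In the inputs 10 of 27 were above 0 and 1 had an unadjusted p under 0.05, against 2.03% of all genes.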

How the data were processed

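RNA from 6 mice was measured as 12 RNA-seq libraries, an IP and an input from each animal. Per the labels and methods, the authors aligned reads to mm10 with STAR, and HTSeq is named in the submitters' processing notes. The counting mode and use of strand are not given in the sources used here, so overlapping and antisense genes are uncertain. The labels and the methods name different library kits, which leaves the removal of ribosomal RNA uncertain.

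The deposited counts are whole reads per gene that were not normalized. The authors also deposited FPKM, used here only to obtain gene lengths, and a normalized signal, which was not used. Their log2 fold changes and p-values, and 6 further log columns per sample, were not used.

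Counts were analysed with edgeR 4.0.16 in R 4.3.3. Genes were kept by filterByExpr (minimum count 10, minimum total 15), which left 14354 of 24060 genes. Libraries were scaled by TMM, 4 group means were fitted with glmQLFit, and 5 contrasts were tested with glmQLFTest. P-values were adjusted over all genes tested by the Benjamini-Hochberg method, and an adjusted p under 0.1 was called, the threshold of the study. In comparisons of the diets they rest on the spread between these animals, estimated over all 12 libraries. For IP against input and the interaction, this fit took both libraries of an animal as independent. The p-values and standard errors given for those comparisons are thus unpaired. Standard errors were derived from the log2 fold change and its F statistic. The balance of progenitor and differentiation genes used log2 CPM with a prior count of 2. A floor of 3 counts stands for a count of 0 and covers counting error only, since reads were counted without molecular identifiers. The common biological coefficient of variation was 101%.

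Alternatives were RLE scaling, no filter, Rn45s and Lars2 left out, DESeq2 1.42.0, leaving out each animal, and a replicate block for the animal (limma 3.58.1 voom with duplicateCorrelation for comparisons between animals). IP and input libraries are paired because each mouse gave both. Deviations from the group means correlated at 0.0064 to 0.19 within an animal and at -0.10 to 0.033 between animals (median -0.018), with overlap. As deviations in a group add up to 0, positive values within animals bring negative ones between them, so the contrast is partly fixed. The lowest chi-square per degree of freedom between replicates of a group was 123, so no library was a repeat of another in its group. Libraries of different groups were not compared in this way.

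Members with values in every library were the 3 markers and, in each role group, the 2 members with the smallest unadjusted p over the 4 comparisons of groups. Others are named as chosen after their values were seen. Coordinates of whole genes are from RefSeq GRCm38.p6, the assembly also called mm10, and were found for all 36 members. The chromosome given in the count table was the same for 35, and none was given there for Myrf. The members, lists and role groups were chosen with earlier results of these data known. The tests were checked on counts simulated with the dispersion of these libraries. In HFD IP against CFD IP they recovered 22 of 100 genes changed 4-fold and 67 of 100 changed 32-fold. Most changes of 4-fold were thus missed, and a member that was not called may still have changed.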

Additional observations from a re-analysis of the deposited data

Results flagged for a closer look

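For 2 of the 36 members every CFD animal had less transcript in IP than in input and every HFD animal had more, a pattern met by 1.23% of all genes tested. For Gpr37 the log2 ratio of IP to input was -2.56, -1.47 and -1.52 in CFD and 0.82, 0.77 and 0.21 in HFD, and the means differed by 2.45. In edgeR's test of the interaction Gpr37 had a log2 difference of 2.5 (SE 0.995), for which p was 0.0199 unadjusted and 0.872 adjusted. For Sox6 the ratio was -0.43, -0.31 and -0.37 in CFD and 1.10, 0.35 and 0.22 in HFD, and the means differed by 0.92. The interaction of Sox6 was 1.0 on the log2 scale (edgeR p 0.204 unadjusted). Neither interaction passed the correction over all genes.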

How the results depend on the processing

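With edgeR under RLE scaling, no filter, Rn45s and Lars2 left out and leaving out each animal (0 to 0 members), and with the replicate block (edgeR, or limma between animals), 0 of 36 members were called in all 5 comparisons. DESeq2 called 3 members in HFD IP against CFD IP and 2 in IP against input in CFD. Over all genes the count in HFD IP against CFD IP was 8 by edgeR, 729 by DESeq2, 219 with no filter and 5 with the block. For IP against input it was 27, 811, 312 and 139 in CFD and 2, 66, 79 and 24 in HFD. For the inputs it was 0, 31, 3 and 0, and for the interaction 0, 121, 44 and 0. Leaving out an animal gave 1 (without 517) to 20 (without 489) in HFD IP against CFD IP, with 4 without 516 or 556 and 5 without 555 or with Rn45s and Lars2 left out. In IP against input it gave 2 (without 555) to 52 (without 516) in CFD, with 4 without 489, 3 without 556 and 40 without 676. In HFD it gave 0 (without 516) to 35 (without 676), with 1 without 517. In the inputs and the interaction it gave 0 to 1. The cause was not tested.

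Leaving out animals moved the balance of progenitor and differentiation genes. The difference between HFD IP and CFD IP ranged from 0.28 to 0.50. It ranged from -0.73 to 0.06 for IP against input in CFD, from 0.0095 to 0.34 in HFD (0.34 without animal 676), and from -0.46 to 0.33 for the inputs. Without animal 555 it was 0.06 in the CFD fractions and 0.33 in the inputs. The diet difference in IP changed sign for Sox10 without animal 676, with a range of -0.36 to 0.078, and for Olig2 without animal 517 (-0.078) or animal 555, with a range of -0.082 to 1.13. For Enpp6 IP against input in CFD changed sign without animal 555, with a range of -0.37 to 3.29.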
